A study of Caenorhabditis elegans with 4 samples.

Results

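Chromosome II held 2934 of the 17858 BLMP-1 peaks called in Caenorhabditis elegans embryos, or 16.4% of the list of the whole series. They were taken as all peaks of that list that lie on chromosome II, without regard to their strength. The same chromosome held 1771 of the 11261 peaks called in ChIP replicate 1 and 538 of the 3009 called in ChIP replicate 2. Chromosome II, 15.3 Mb long up to its last peak, was compared with chromosomes III, IV, V and X, which held 2851, 3437, 3791 and 3130 series peaks.

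The peaks come from ChIP-seq, in which chromatin fragments bound by a chosen protein are precipitated and sequenced. There were 2 ChIP libraries and 2 input libraries of unselected chromatin, from embryos of strain OP109 grown at 20 °C, and peak lists of the ChIP libraries and of the whole series were analysed here. All worms carried the unc-119 mutation ed3 and the transgene wgIs109, which holds blmp-1 joined to TY1, EGFP and FLAG tags together with a working unc-119 copy, and the fusion protein was caught by its GFP. The labels say that the transgene went in by particle bombardment and that the strain was not outcrossed. The labels as used here give neither its copy number nor its place in the genome, and there was no strain without it. Whole embryos were used, so cell types cannot be told apart.

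BLMP-1 belongs to the Blimp-1 family of transcription factors, which bind DNA through zinc fingers. In C. elegans it is known for the timing of larval development, for cell migration in the gonad and for the epidermis. Worm chromosomes have no single centromere. The central region of an autosome is typically rich in genes and recombines little, while the arms recombine more, hold more repeats and carry more of the histone marks of silent chromatin. All positions below are on WormBase WS220, counted from 1. No genome or gene annotation of that build was used here, so regions are named by position, without genes or sequence.

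Each peak has a score, the authors' own value, here taken to be a q-value. It is lower for stronger peaks, and all scores lie between 0 and 0.001. Read depth is unknown. No input list was analysed here, so no background is given and a peak is a called region, not a proven binding site. Tests below compare counts of peaks within these lists. Neighbouring peaks are not independent and separate cultures for the replicates are not stated in the labels, so the p-values are too small for statements about animals, and the value in each replicate list is given beside them.

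Peaks on chromosome II were mostly narrow, and a small part of them were wide. In the series list the median width was 143.5 bp (quartiles 61 and 227 bp), 21.3% of peaks were under 50 bp wide and 18 peaks (0.613%) were over 1000 bp wide. Together they covered 3.54% of the chromosome. Replicate 1 peaks had a median width of 157 bp and covered 2.23%, and replicate 2 peaks had a median width of 291.5 bp and covered 1.20%. In none of the 3 lists did the share of peaks over 1000 bp pass Fisher's exact test against III, IV, V or X (adjusted p at least 0.474). Stronger peaks were wider, with a Spearman's rho between strength and width across peaks of 0.653 (series list), 0.702 (replicate 1) and 0.632 (replicate 2).

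The density of chromosome II was close to that of the compared chromosomes together, at 192 peaks per Mb against 189 (ratio 1.02, 95% interval 0.976 to 1.06, two-sided exact binomial p 0.430). In the series list it lay between the denser III and the sparser V and X. Against III, at 207 peaks per Mb, the ratio was 0.928 (0.881 to 0.978, exact binomial p adjusted over the 4 chromosomes 0.00968). This lower density was seen in both replicate lists, at 0.773 in replicate 1 (116 against 150 peaks per Mb, adjusted p 6.73e-15) and 0.870 in replicate 2 (35.2 against 40.5, adjusted p 0.0430). Against V, at 181 per Mb, the series ratio was 1.06 (adjusted p 0.0271). It was 1.02 in replicate 1 (adjusted p 0.499) and 1.25 in replicate 2 (adjusted p 0.00105).

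Chromosome X was sparser than II in the series list, and the comparison did not pass in either replicate list. Against X, at 177 per Mb, the ratio was 1.09 in the series list (exact binomial adjusted p 0.00470), but 1.04 in replicate 1 (adjusted p 0.383) and 1.09 in replicate 2 (adjusted p 0.148). Against IV, at 196 per Mb, it was 0.977 in the series list (adjusted p 0.366), 0.929 in replicate 1 (adjusted p 0.0417) and 1.12 in replicate 2 (adjusted p 0.0912), so for IV the replicates pointed in opposite directions. For the 4 chromosomes together the replicates also differed, with a ratio of 0.941 in replicate 1 (exact binomial p 0.0206) and 1.08 in replicate 2 (p 0.0945).

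The middle part of chromosome II was denser than its outer parts in all 3 lists. With the chromosome divided into 3 equal parts, the series list held 1095 peaks in the middle part and 1839 in the outer parts together. This was 215 against 181 peaks per Mb. These parts need not match the central region and the arms, whose boundaries were not used here. The ratio was 1.19 (1.10 to 1.28, exact binomial p adjusted over 26 tests within chromosome II 7.14e-05). It was 1.28 in replicate 1 (136 against 106 per Mb, adjusted p 1.17e-05) and 1.43 in replicate 2 (44.0 against 30.8 per Mb, adjusted p 0.000472). The higher density of the middle part did not depend on its fullest place. Without the fullest 100-kb window the ratios were 1.17 (series list), 1.25 (replicate 1) and 1.34 (replicate 2).

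**Figure D1:**
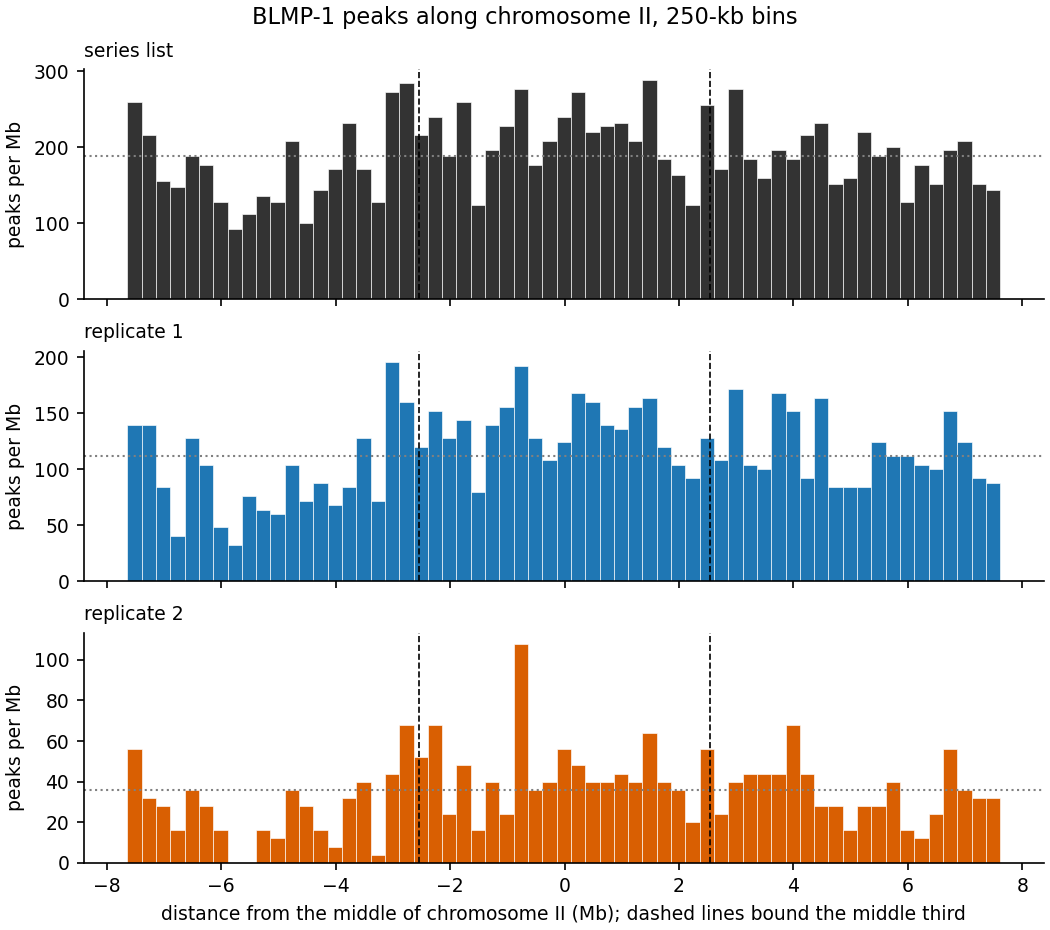
Peaks per Mb (y axis) in full 250-kb bins along chromosome II, against the distance of the bin from the middle of the chromosome in Mb (x axis), in the series list, replicate 1 and replicate 2. Dotted lines mark the median bin (188, 112 and 36 peaks per Mb) and dashed lines bound the middle part; bins are lowest on the left of the chromosome, and 1 bin of the middle part reaches 108 peaks per Mb in replicate 2.

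The share of peaks in the middle part was larger on II than on IV and X. In the series list it was 37.3% on II (35.6% to 39.1%). Chromosomes III, IV, V and X had 36.3%, 32.6%, 35.1% and 33.9%. The difference passed Fisher's exact test against IV (adjusted over 4 chromosomes, p 0.000375) and X (adjusted p 0.0124), but not against III (adjusted p 0.429) or V (adjusted p 0.0776). In replicate 1 the share on II was 39.1%, above III, IV and X (adjusted p 0.00707, 1.27e-05 and 0.00134) but not V at 37.4% (adjusted p 0.272). In replicate 2 it was 41.6%, and no comparison passed, with an adjusted p of 0.0631 against X at 34.5% and at least 0.166 against the others. Replicate 2 held a larger share in the middle of V, at 45.3%, than in that of II.

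**Figure D2:**
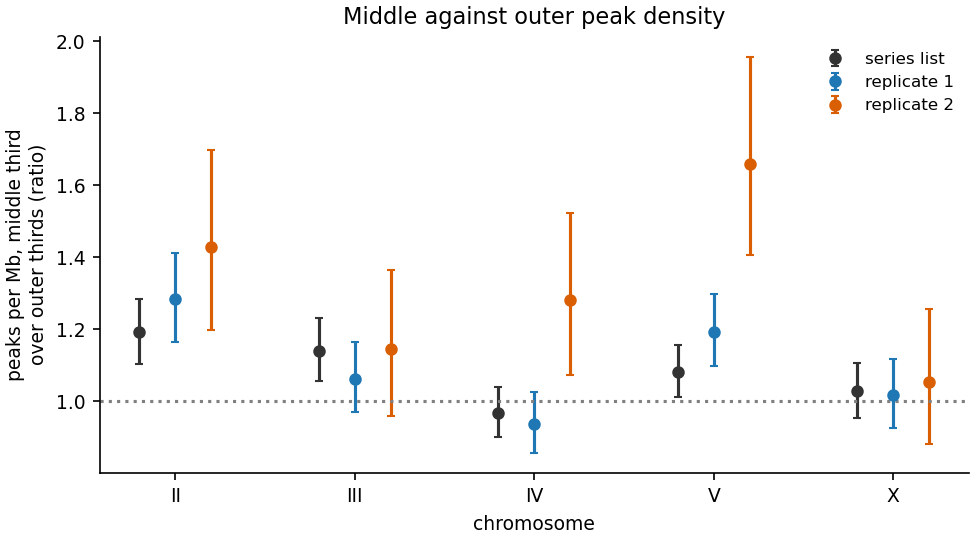
Ratio of the peak density in the middle part to that in the outer parts (y axis) for chromosomes II, III, IV, V and X (x axis), with exact 95% intervals, in the series list, replicate 1 and replicate 2. On II the ratios are 1.19, 1.28 and 1.43 and their intervals lie above 1, as on V. On IV the ratios of the series list and replicate 1 are below 1, with intervals that cross 1. The interval of replicate 2 on IV and that of the series list on III lie above 1.

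The left part was the sparser of the outer parts, by a difference that passed the test in replicate 1 but not in the other lists. The left part held 173 series peaks per Mb and the right part 188 (ratio 0.924, exact binomial adjusted p 0.142). In replicate 1 the values were 94.3 and 118 per Mb (ratio 0.801, adjusted p 0.00140), and in replicate 2 they were 26.9 and 34.8 per Mb (ratio 0.774, adjusted p 0.0512). When the weaker 50% of each list was left out, the series ratio was 0.799 (unadjusted p 0.000866). With outer parts of 25% of the length each it was 0.861 in the series list (unadjusted p 0.00738). Strong peaks were also rarer on the left. Of the left peaks 66 (7.47%) were among the strongest 10% of the series list, against 114 of the right peaks (11.9%, Fisher's exact test adjusted p 0.00527). Replicate 1 gave 8.33% against 12.7% (adjusted p 0.0459) and replicate 2 gave 7.30% against 7.91% (adjusted p 1).

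The lowest density on the left lay in 1 stretch. Of the 15 full 1-Mb bins, the 3 from 1000001 to 4000000 were the lowest in each of the 3 lists. They held 146, 146 and 162 series peaks, where the other bins held 173 to 226. In replicate 1 they held 78, 76 and 78 peaks against 101 to 148 elsewhere, and in replicate 2 they held 20, 16 and 21 against 24 to 50. The first bin of the chromosome did not share this and held 195, 101 and 33 peaks.

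The share of peaks that overlapped between lists also changed along the chromosome. Over all chromosomes 9.09% of series peaks overlapped peaks of both replicates by at least 1 bp. On II 282 did so, or 9.61% (8.57% to 10.7%). The share was 12.1% in the middle part (132 peaks) and 8.16% in the outer parts (150 peaks), a ratio of 1.48 (Fisher's exact test adjusted p 0.00273). The left part was at 7.02% and the right part at 9.21% (adjusted p 0.142). Among the stronger 50% of each list the ratio of middle to outer parts fell to 1.22 (unadjusted p 0.203). The part of peak density in these shares was not tested.

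The replicate lists alone gave the same picture, though both shares below count the same overlaps, seen from each list, and are not independent. Of the replicate 2 peaks on II, 272 of 538 (50.6%, 46.2% to 54.9%) overlapped a replicate 1 peak, where the share over all chromosomes was 51.5%. It was 57.6% in the middle part and 45.5% in the outer parts (Fisher's exact test adjusted p 0.0158). Of the replicate 1 peaks, 270 of 1771 (15.2%, 13.6% to 17.0%) overlapped a replicate 2 peak, against 13.8% over all chromosomes. Middle and outer parts were at 18.2% and 13.3% (adjusted p 0.0158). The middle part was also the denser one, at 136 against 106 peaks per Mb (replicate 1) and 44.0 against 30.8 (replicate 2). Overlaps of 1 bp come more easily where peaks are denser, and the part of density in these shares was not tested. Among 1-Mb bins the share of series peaks found in both replicates ranged from 3.66% between 12000001 and 13000000 to 14.8% in the bin just before it.

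The chromosomes differed in a similar way, and II stood near the middle of them. The share of series peaks in both replicates was 11.0%, 8.03%, 7.12% and 10.7% on III, IV, V and X in that order. Against II, only V passed Fisher's exact test (adjusted p 0.00112), and IV did not (adjusted p 0.0526). Replicate 1 peaks were found in replicate 2 more often on II than on IV, at 11.9% (adjusted p 0.00535), and on V, at 10.6% (adjusted p 4.19e-05). Replicate 2 peaks were found in replicate 1 more often on II than on V, at 42.3% (adjusted p 0.0239). Other comparisons of these shares did not pass. On V the middle and outer parts had 10.9% and 5.08% of series peaks in both replicates, and on X 10.5% and 10.7%. Whether the contrast of middle and outer parts differs between II and other chromosomes was not tested, nor was the part of density in these shares.

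The share of series peaks found in replicate 1 alone was somewhat lower on II than on each compared chromosome. There were 970 of them, or 33.1% (31.4% to 34.8%), where 36% of all series peaks are of this kind. The shares on III, IV, V and X were 39.3%, 36.8%, 37.5% and 35.9%, and II was below each (Fisher's exact test adjusted p 3.80e-06, 0.00251, 0.000390 and 0.0216). Peaks found in replicate 2 alone numbered 202 (6.88%, against 5.93% over all chromosomes), and no comparison with II passed (adjusted p at least 0.0848). Peaks found in neither numbered 1480 (50.4%, 48.6% to 52.3%, against 49% over all), which was above III at 43.4% (adjusted p 3.06e-07) but not above IV, V or X (adjusted p at least 0.121). With replicate 1 shortened to as many peaks as replicate 2, replicate 1 alone was at 8.93% on II and 9.55% on the 4 others together (ratio 0.935, unadjusted p 0.311). In the stronger 50% of each list the shares were 34.6% and 36.9% (ratio 0.937, unadjusted p 0.0952), so the difference did not pass under either setting.

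**Figure D3:**
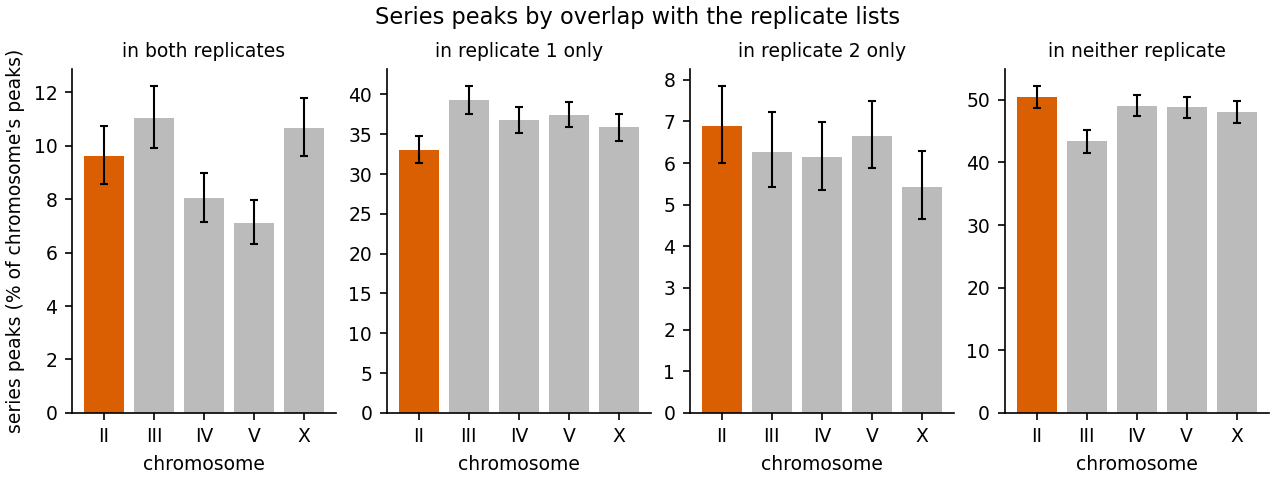
Share of the series peaks of each chromosome (y axes, percent, from 0) that overlap peaks of both replicates, replicate 1 only, replicate 2 only or neither, for II (orange) and III, IV, V and X (grey), with exact 95% intervals for counting error. The bar of II for replicate 1 only, at 33.1%, is the lowest of its panel.

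The 4 kinds of peak on II differed in width and strength. Those in both replicates had a median width of 428.5 bp and a median score of 1.34e-13. Those in replicate 1 alone had 173 bp and 1.29e-05, those in replicate 2 alone 188.5 bp and 5.94e-06, and those in neither 96 bp and 0.000203. Median widths on III, IV, V and X together were close to these, at 438, 164, 194 and 99 bp in the same order. Among the strongest 20% of the series list, 269 of 613 peaks on II (43.9%) were in both replicates. In the next 20% there were 12 of 595 (2.02%). The shares on III, IV, V and X together were much the same, at 44.3% and 1.88%. Across the 272 matched pairs of replicate peaks on II, ranks correlated with a Spearman's rho of 0.536, a description of these pairs. On III, IV, V and X it was 0.599, 0.582, 0.647 and 0.584. Midpoints of the pairs on II lay 66.5 bp apart at the median, and median widths were 335.5 bp in replicate 1 and 334.5 bp in replicate 2.

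**Figure D4:**
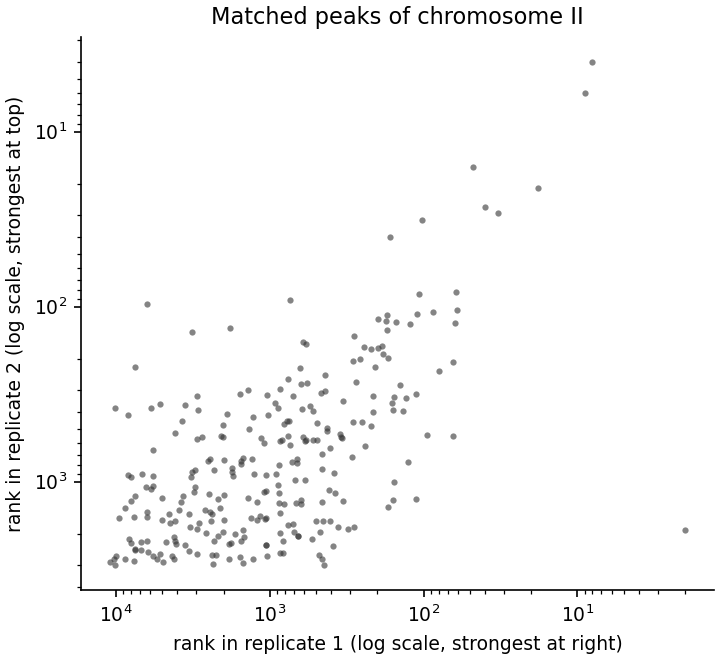
Rank of each of the 272 matched peaks of chromosome II in replicate 1 (x axis) and in replicate 2 (y axis), both on log scales with the strongest peaks at the top right. The point apart at the lower right is the wide region of rank 2 in replicate 1 and rank 1886 in replicate 2.

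Strong peaks were less frequent on II than on III and more frequent than on IV and V in the series list. Among its series peaks 304 (10.4%, 9.28% to 11.5%) were in the strongest 10% of the whole list. The share on III, IV, V and X together was 9.67% (Fisher's exact p 0.257). In replicate 1 it was 11.2% on II against 9.41% on the 4 together (ratio 1.19, Fisher's exact p 0.0196), and in replicate 2 it was 9.29% against 9.73% (p 0.808). II was below III, at 12.7% (adjusted p 0.00865), above IV, at 8.03% (adjusted p 0.00282), and above V, at 7.78% (adjusted p 0.00113). X was at 11.0% (adjusted p 0.406). In replicate 1, II was again above IV and V (adjusted p 0.00322 and 2.96e-05), and the comparison with III, at 11.5%, did not pass (adjusted p 1). In replicate 2 no comparison passed (adjusted p at least 0.957).

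The strongest series peak on II was also its widest, and the replicates disagreed on it. It spanned 9897273 to 9903210 (5938 bp, score 0). Replicate 1 had 1 peak of 6001 bp over all of it, second in its list, while replicate 2 had 1 peak of 247 bp that took up 4.16% of it and ranked 1886 of 3009.

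The next peaks were a close pair found in both replicates. The series list had 8750638 to 8751780 (1143 bp, score 1.23e-182, rank 7) and 8748699 to 8750417 (1719 bp, score 3.71e-180, rank 8). In replicate 1 the pair ranked 8 and 9 and in replicate 2 it ranked 4 and 6. The lists placed the break between the peaks differently. It ran from 8750418 to 8750637 (220 bp) in the series list and from 8750328 to 8750720 (393 bp) in replicate 1, but from 8749748 to 8749997 (250 bp) in replicate 2. The replicate 2 peak of 1524 bp therefore crossed the break of the other lists.

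Among the other 7 of the 10 strongest series peaks, 6 were found in both replicates. At 6712121 to 6713350 (1230 bp, score 2.83e-109) the peak ranked 18 in replicate 1 and 21 in replicate 2. At 15217764 to 15218628 (865 bp) the ranks were 48 and 16, at 300744 to 301745 (1002 bp) they were 33 and 29, and at 13053104 to 13053808 (705 bp) they were 40 and 27. At 15262868 to 15263873 (1006 bp) they were 62 and 82. The region 11634048 to 11636495 (2448 bp, score 3.65e-79) was made of 2 peaks in replicate 1 and 3 in replicate 2, with best ranks of 64 and 208. The exception was 11027545 to 11028253 (709 bp, score 5.09e-93, rank 24), which ranked 13 in replicate 1 with nearly the same edges and had no replicate 2 peak.

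Of the 10 widest series peaks on II, 3 were among these strongest ones, at 9897273, 11634048 and 8748699. Another 3 lay close together in the middle part, from 6826370 (1425 bp), from 6830584 (1475 bp) and from 6843745 (1544 bp). The remaining 4 began at 9644651 (1812 bp), 3834255 (1666 bp), 8531920 (1339 bp) and 4152618 (1303 bp). The one at 3834255 was the weakest of the 10, with a score of 5.72e-07 and rank 3469 of 17858. It was still stronger than the median series peak of II, which had a score of 4.95e-05. Replicate 1 had 1 peak of 862 bp there, of rank 7417, and replicate 2 had none.

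Some strong peaks of 1 replicate lacked a partner in the other. After 11027542, the strongest replicate 1 peaks on II with no replicate 2 peak began at 6522678 (842 bp, rank 224), 8561095 (738 bp, rank 369), 7059031 (772 bp, rank 388) and 2935713 (833 bp, rank 445). In replicate 2 the strongest without a replicate 1 peak began at 6838151 (549 bp, rank 266), 15165797 (376 bp, rank 286), 8419504 (529 bp, rank 403), 4562508 (722 bp, rank 439) and 3956393 (634 bp, rank 489). Each of these 10 peaks overlapped a series peak, which covered from 66.3% to 100% of its width. Ranks are within lists of unequal length and are not comparable as levels.

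The densest place on chromosome II was the same in each list. The 100-kb window from 6800001 to 6900000 held 36 series peaks, 31 of replicate 1 and 17 of replicate 2, where the median window of II held 19, 11 and 3. It was the fullest of the 152 full windows in each list. Its series peaks had a median width of 232.5 bp and covered 14.4% of it, and 13 of the 36 were among the strongest 10%. The next fullest windows held fewer replicate peaks. They began at 4900001 with 35 series, 25 replicate 1 and 7 replicate 2 peaks, at 7800001 with 34, 15 and 5, at 9000001 with 34, 16 and 9, and at 12000001 with 33, 21 and 5.

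Within that window most peaks crowded into less than 30 kb. From 6819854 to 6848338 (28485 bp) there were 21 series peaks, the most in any 30 kb of II, and they covered 43.3% of the stretch. Replicate 1 had 19 peaks there and replicate 2 had 15, which were likewise the most in any 30 kb of II in their lists. The average of the chromosome was 5.76, 3.48 and 1.06 peaks per 30 kb. Of the 21 series peaks, 11 overlapped peaks of both replicates, 5 of replicate 1 only, 1 of replicate 2 only and 4 of neither. The strongest spanned 6828801 to 6829651 (851 bp, score 2.57e-54, rank 70), with replicate peaks of 547 bp (rank 102) and 1096 bp (rank 32). This stretch was chosen after its values were seen.

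**Figure D5:**
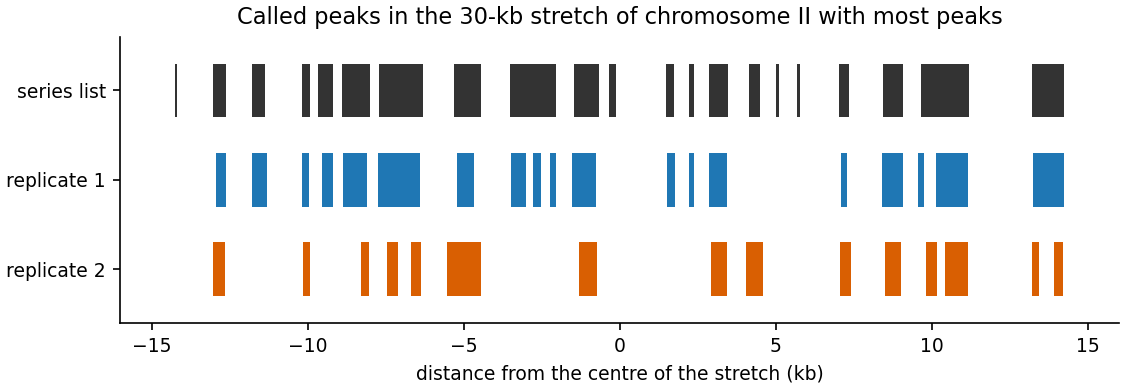
Called peaks (boxes, to scale) in the series list, replicate 1 and replicate 2, over the stretch of at most 30 kb of chromosome II with most series peaks, against the distance from its centre in kb (x axis). The rows hold 21, 19 and 15 peaks, and the 2 replicates have peaks spread along the length, with gaps between them and edges that differ.

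Other chromosomes also had crowded stretches by the count of series peaks. The fullest 30 kb held 26 series peaks on IV, 21 on III, 19 on V but 17 on X. These peaks covered 49.6% of the stretch on IV, where those of II covered 43.3%. On III, V and X they covered 13.7%, 15.8% and 14.1%. On IV, as on II, the fullest stretches of the 3 lists overlapped, with 26, 19 and 17 peaks. On III they began at 7139395, 12590785 and 8555387 in the 3 lists, and so did not. On III and V the fullest 30 kb of replicate 2 held 7 and 8 peaks.

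The longest stretch of chromosome II without series peaks was about as long as that of III and shorter than those of IV, V and X. It ran from 9785407 to 9842394 (56988 bp), where replicate 1 had 3 peaks and replicate 2 had none. The longest on III, IV, V and X were 54791, 82453, 222941 and 86814 bp. The next on II began at 1989368 (49859 bp), 14059981 (49268 bp), 3173929 (48239 bp) and 979760 (46694 bp), and 3 of these 5 lay in the left part. Only the one at 3173929 lacked peaks of both replicates as well. The others held 1 replicate 1 peak each, apart from the 3 of the first.

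Both replicates had most of their longest empty stretches on the left, 4 of the 5 longest in each. In replicate 1 the 4 longest began at 2576011 (108516 bp), 979797 (90417 bp), 900897 (78741 bp) and 626197 (74518 bp). The series list had peaks in each of them, from 4 to 9. Replicate 2 had none from 1719103 to 2341227, a stretch of 622125 bp, longer than its longest on III (218191 bp), IV (220078 bp), V (392134 bp) or X (280108 bp). Its next longest on II was 188095 bp from 4322597.

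That stretch was not empty in the other lists, but sparse and weak. The series list had 61 peaks in it, or 98.1 per Mb where the chromosome had 192, and replicate 1 had 32, or 51.4 per Mb where it had 116. The best series peak there ranked 1931 and the best replicate 1 peak 1847, so 0 of the 61 and 0 of the 32 were among the strongest 10% of their lists. The median rank of the replicate 1 peaks was 7272.5 of 11261. Leaving the stretch out, the middle part of II was still denser than the outer parts, with ratios of 1.16 (series list), 1.24 (replicate 1) and 1.34 (replicate 2).

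Peaks on II followed each other at a median of 2992 bp in the series list (quartiles 1090 and 6555 bp) and 4924 bp in replicate 1, and 15905 bp in replicate 2. The smallest gap on II was 202 bp in the series list and 204 bp in each replicate list, so spacing below about this distance cannot be read. Over all chromosomes 36.9% of series peaks had a neighbour with at most 1000 bp between them. On II 1153 did, or 39.3% (37.5% to 41.1%). This was above V, at 35.6%, and X, at 35.2% (Fisher's exact test adjusted p 0.00382 for each). The comparison with III, at 41.1% (adjusted p 0.207), and that with IV, at 39.3% (adjusted p 1), did not pass. In replicate 1, II was at 27.0%, below III at 31.9% (adjusted p 0.00344), with no difference passing against IV, V and X. Replicate 2 was at 16.5% and no comparison passed (adjusted p at least 0.567). II was also denser than V and X in the series list and sparser than III, and the part of density in these shares was not tested.

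Close neighbours were more frequent in the middle of II in the series list and in replicate 2. They were found for 43.9% of middle and 36.5% of outer series peaks (Fisher's exact test adjusted p 0.000472). In replicate 2 the shares were 24.1% and 11.2% (adjusted p 0.000472), and 5.84% on the left against 15.3% on the right (adjusted p 0.0231). In replicate 1 the middle and outer shares were 28.5% and 26.0% (adjusted p 0.318). Without the fullest window the shares in the middle were 43.0% (series list), 26.3% (replicate 1) and 20.8% (replicate 2). The middle part was also the denser one, at 215 against 181 peaks per Mb (series list) and 44.0 against 30.8 (replicate 2). In replicate 2 the right part was denser than the left, at 34.8 against 26.9 per Mb. The part of density in these shares along II was not tested.

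Runs of peaks, each at most 1000 bp from the next, reached 8 members on II in the series list. The largest spanned 10547700 to 10553109 (5410 bp, best score 1.33e-09), with 3 replicate 1 peaks and no replicate 2 peak. The next had 7 members each. The run from 9281692 to 9285998 had 4 replicate 1 peaks and 1 replicate 2 peak, and that from 14699287 to 14705141 had 3 and 4. In all, 474 runs had at least 2 members and 134 at least 3, and 16.1% of the series peaks of II lay in the latter, a value given without a test. The shares on III and IV were 13.4% and 14.8%, and V and X were both at 11.6%. In replicate 1, II was at 8.24%, below III at 11.0% and above the others. In replicate 2 it was at 5.02%, just below IV at 5.08% and above the others.

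The first series peak on chromosome II began at 134 and the last ended at 15276742. The length used here was this last end, so a peak at the right end was fixed by definition. The outermost 100 kb held 23 series peaks on the left and 25 on the right, with best ranks of 605 and 28. Replicate 1 held 12 and 15 peaks there, and replicate 2 held 5 and 6.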

How the data were processed

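ChIP-seq peak lists of 2 ChIP replicates and of the whole series were analysed, grouped by the sample titles. Per the file headers and source column, the authors called peaks with PeakSeq on WormBase WS220. Not given in the sources used here are the aligner, the threshold, the version of PeakSeq, the use made of the inputs and whether reads were pooled. Per the labels, chromatin was fixed with 2% formaldehyde and 10% of each extract was kept as input. The deposited score of each peak was read as a q-value (a p-value adjusted by rank) because score times peak number never fell along the peak numbers (0 falling steps in each list).

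Peaks are numbered, up to 18286 in the series list, and 428 of those numbers were not analysed here. Replicate 1 lacked 148 and replicate 2 lacked 0. Whether any of these lie on chromosome II is unknown. The replicate lists shared 0 identical intervals. Chromosome lengths were the last peak end over all lists. A peak belonged to the part or window that held its midpoint. The number of peaks limits the precision, and intervals are exact (Clopper-Pearson, 95%) and cover counting error only.

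For densities the test was a two-sided exact binomial test and for shares a two-sided Fisher's exact test, with Benjamini-Hochberg adjustment over the 4 chromosomes for each result and list, or over the 26 tests within chromosome II. Comparisons with the 4 chromosomes together are unadjusted, as are alternatives. Regions were named by a rule: the 10 strongest and 10 widest series peaks, the 5 strongest peaks of each replicate that the other lacks, the 5 fullest windows, the 5 longest empty stretches and the largest run of peaks. Other regions were named after their values were seen. The members, lists and tests were chosen with earlier results of these data known. Code was tested on simulated data and overlap was checked with bedtools 2.31.1. Tests used scipy 1.17.1 and figures matplotlib 3.10.9, with pandas 2.3.3 and numpy 2.4.6 in Python 3.11.15.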

Additional observations from a re-analysis of the deposited data

How the results depend on the processing

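For 13 results 59 alternatives were computed. In 45 of them the call, passing or not passing the threshold, was that of the result itself, and 21 of these 45 passed. Where neither passed, the call counted as the same even when the direction turned, as for strong peaks in replicate 2 alone (1.07 to 0.955). The higher density of the middle of II passed under each of 6 alternatives, at ratios of 1.16 to 1.43. The next ratios are for only replicate 1 and only replicate 2 used, in that order. Those of II to the 4 chromosomes were 0.941 (the direction turned, now past the threshold) and 1.08 for density. For strong peaks they were 1.19 (now past the threshold) and 0.955. Those of left to right were 0.801 and 0.774, both now past the threshold without adjustment. Ratios of middle to outer parts were 1.28 and 1.43 for density and 1.12 and 1.52 for strong peaks. For neighbours the ratios were 0.994 and 1.08 against the other chromosomes. Along II those for neighbours were 1.09 (no longer past the threshold) and 2.16. Left to right was 0.799 in the stronger 50% and 0.861 with outer parts of 25%, both now past the threshold. In the stronger 50%, no longer past it, were the ratios of II to the others for replicate 1 only (0.937), neither (1.02) and replicate 1 peaks found in replicate 2 (1.04), and of middle to outer parts for both replicates (1.22). With equally long replicate lists the ratios were 0.935 for replicate 1 only, 0.991 for neither (the direction turned) and 1.07 for replicate 1 peaks found in replicate 2. None of these was past the threshold any longer. The alternatives that leave out a place, and the results for replicate 1 only, for neither and for neighbours along II with their alternatives, were added after the data were seen. The stronger and equally long lists hold fewer peaks, and other causes were not tested. Adjusted over the 13 results, replicate 1 peaks found in replicate 2 did not pass either (Fisher's exact p 0.0530). No paired analysis was possible because the 2 replicates belong to 1 group and peaks of an input were not analysed here. Genes, distance to transcription starts and sequence were not analysed, for want of a WS220 genome here. Depth is unknown, so its part in the fewer replicate 2 peaks was not tested.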

Other observations

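Peak counts along chromosome II rose and fell together in the 2 replicates. Across its 152 full 100-kb windows, the counts of replicates 1 and 2 had a Spearman's rho of 0.616, where III, IV, V and X had 0.497, 0.328, 0.545 and 0.596. Across 15 full 1-Mb bins of II it was 0.835. On III, IV, V and X it was 0.394, -0.0381, 0.721 and 0.659, across 13, 17, 20 and 17 bins. These are descriptions across windows of the same 2 libraries, which share the genome's sequence and its mappability, and differences between chromosomes were not tested.

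Windows with no replicate 2 peak made up 10 of the 152 on II (6.58%). On III, IV, V and X they made up 3.65%, 6.90%, 13.0% and 7.34%. Replicate 1 and the series list had a peak in each window of II, and their lowest windows held 2 and 5.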
